A study of Mus musculus with 30 samples.

Results

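A set of 7 transcription factor genes associated with the naive, quiescent or stem-like state of T cells were followed, namely Lef1, Klf2, Foxo1, Foxp1, Bach2, Satb1 and Id3. They were chosen by gene symbol, and each was measured by 1 row of the array table, so that 7 of 19938 genes with a symbol of their own are described. All 7 passed the filter on low values. The cells were CD8+ T cells from spleens of adult C57BL/6 mice aged 6 to 12 weeks that carry the Pmel-1 transgene, a T cell receptor against a melanocyte antigen. All groups carried that transgene and had been sorted by flow cytometry, and the labels give female sex for every sample. Naive cells (TN, Ly5.1) and memory cells that had been differentiated in culture (TMem, Ly5.2) were analysed unstimulated (0 h) and after 18 h or 96 h with antibodies to CD3 and CD28 and with interleukin-2. Each kind was stimulated either alone or mixed with the other and then separated again, which gives 10 groups of 3 arrays. The labels number these as repeats and do not say whether they came from separate animals or cultures, so p-values measure only the spread between these samples. TMem were made in culture and every cell has the same receptor, so both limit these groups as a model of memory. Ly5.1 and Ly5.2 are forms of the surface protein CD45 by which the mixed cells can be told apart.

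In a resting naive T cell, FOXO1 sits in the nucleus and switches on genes for survival, homing and quiescence, among them Klf2, whose product in turn drives the exit receptor S1pr1. Receptor signals through PI3K and AKT push FOXO1 out of the nucleus, and transcription of its targets then declines. LEF1 is a high-mobility-group factor of the WNT pathway that keeps CD8+ T cells in a self-renewing state, FOXP1 enforces quiescence, BACH2 holds back effector genes by occupying AP-1 sites, SATB1 organises chromatin in T cells, and ID3 blocks E proteins and marks long-lived memory precursors.

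The stretches upstream of the start sites of Klf2, Foxo1 and Bach2 are shown because all 3 genes fell in naive cells mixed for 18 h, Klf2 and Foxo1 having like orders of groups and Bach2 another. Each run is the 250 bases before the start, 5' to 3' on the gene's own strand, from RefSeq (GRCm38.p6, plus strand). All 3 windows lie directly before a start site that RefSeq lists, and whether a window lies inside a longer form of its gene was not examined. Capitals mark matches to 5 short motifs searched on both strands, which are TGTTTAC (the FOXO core), CTTTGA (the TCF/LEF core), CAGGTG (an E-box), CCACCC (the KLF box) and TGANTCA (the AP-1 and BACH core), and none of the matches overlap.
Klf2, chr8:72318812-72319061: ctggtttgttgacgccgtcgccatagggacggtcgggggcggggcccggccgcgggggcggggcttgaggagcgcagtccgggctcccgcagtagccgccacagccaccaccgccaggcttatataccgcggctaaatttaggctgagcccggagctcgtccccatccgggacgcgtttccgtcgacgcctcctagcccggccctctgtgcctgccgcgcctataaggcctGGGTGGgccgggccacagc
Foxo1, chr3:52268087-52268336: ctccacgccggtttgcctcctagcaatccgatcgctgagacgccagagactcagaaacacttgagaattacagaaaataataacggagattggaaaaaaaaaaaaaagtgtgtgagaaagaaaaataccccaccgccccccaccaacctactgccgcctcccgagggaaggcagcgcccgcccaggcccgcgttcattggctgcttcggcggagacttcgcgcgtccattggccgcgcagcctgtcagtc
Bach2, chr4:32417185-32417434: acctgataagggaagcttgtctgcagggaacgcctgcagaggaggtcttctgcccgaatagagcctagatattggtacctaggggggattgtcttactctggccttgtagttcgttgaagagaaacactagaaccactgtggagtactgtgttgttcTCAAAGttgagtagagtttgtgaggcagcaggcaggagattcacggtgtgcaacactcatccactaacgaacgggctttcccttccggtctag
The Klf2 stretch has a KLF box that begins 19 bases before the start, the Bach2 stretch has a TCF/LEF core 93 bases before it, and the Foxo1 stretch holds none of the 5 motifs. RefSeq lists 16 start windows of 300 bases for the 7 genes, 250 before and 50 after the start. The KLF box is in 10 of these 16 windows and in 31.5% of all 32851 windows of that length. The TCF/LEF core is in 3 of the 16 and in 16.0% of all, the E-box in 4 and in 20.2%. Neither the FOXO core (3.6% of all windows) nor the AP-1 and BACH core (7.8%) is in any of the 16. Windows of the same gene can overlap, and a match describes letters only.

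Values are the deposited log2 intensities, in which a difference of 1 is a doubling, and levels were set against each other only within a gene. Differences were tested with limma over all 19938 genes and called at a Benjamini-Hochberg adjusted p below 0.05. Several measurements that stand apart bear on the groups. Xist, which is transcribed from the inactive X chromosome of females, lay between 9.34 and 12.11 on all TN arrays and between 4.99 and 6.02 on all TMem arrays, against the label. The Y-linked gene Eif2s3y lay between 8.82 and 9.51 on the TMem arrays. Among TN arrays Eif2s3y lay at no more than 4.58 at 0 h and 4.13 to 4.20 alone at 96 h, but at 8.09 to 8.25 alone at 18 h, 8.21 to 8.50 mixed at 18 h and 7.34 to 7.89 mixed at 96 h. Kdm5d and Uty, also Y-linked, were likewise higher in these 3 TN groups than in TN at 0 h or alone at 96 h, and highest in TMem. Animals of both sexes, or TMem RNA in TN samples, cannot be told apart by these levels, and in bulk RNA fewer cells of a type and less RNA per cell cannot be told apart either. The 0 h arrays also varied more than the rest, with a median SD over the 7 genes of 0.230 in TN and 0.253 in TMem, against 0.027 to 0.141 in the other groups. TN 0 h replicate 1 had the lowest mean correlation with its group mates (0.9804), and TMem 0 h replicate 3 had Foxp3 at 8.62 beside 6.88 and 7.21 in the other two. By mean correlation with their group mates, TMem 0 h replicates 2 (0.9873) and 3 (0.9870) were alike. Results that use the 0 h groups are followed by the values of called members without TN replicate 1 and TMem replicate 3. That choice was made after seeing the data.

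**Figure D1:**
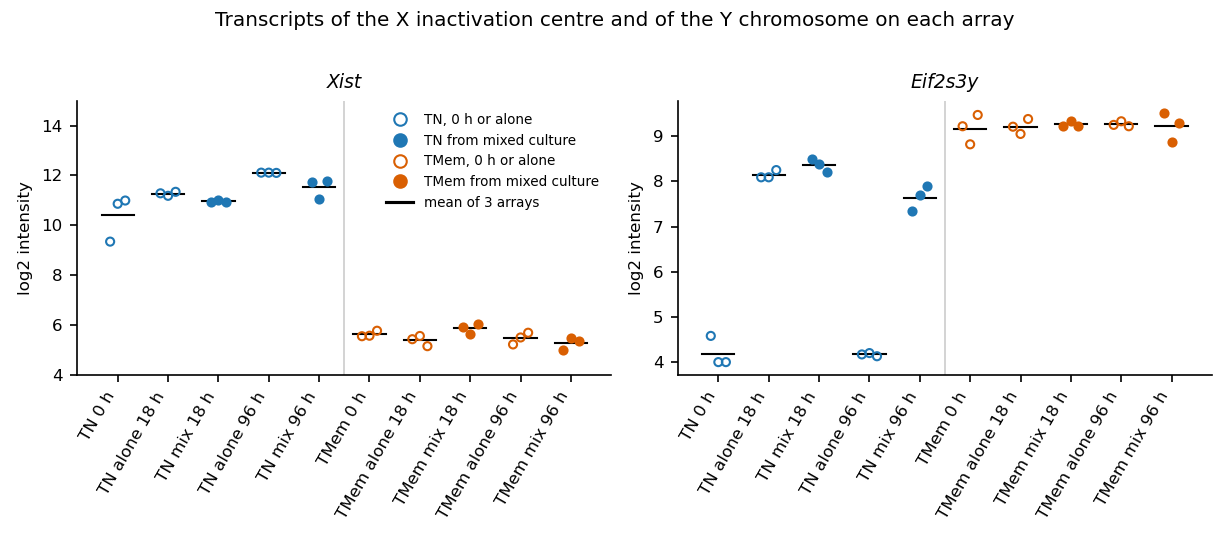
Log2 intensity of Xist and of the Y-linked gene Eif2s3y on each of the 30 arrays, by group; circles are arrays, open for 0 h or cultures of 1 cell kind and filled for mixed cultures, and lines are means of 3 arrays. All TMem arrays are low in Xist and high in Eif2s3y, and TN from mixed culture at 96 h lie at 7.34 to 7.89 in Eif2s3y where TN cultured alone lie at 4.13 to 4.20.

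Before stimulation, 3 of the 7 factors were lower in memory cells, 1 was higher and 3 did not pass the test, in a comparison in which 35.9% of all genes were called. Klf2 carried the widest of these differences. It read 10.85, 11.08 and 11.11 in TN and 9.28, 9.50 and 10.14 in TMem, a difference of -1.37 (SE 0.13, 2.59-fold, limma adjusted p = 1.05e-09). The groups did not overlap, although TMem replicate 3 stood well above its mates. Id3 was lower in TMem by -0.84 (SE 0.15), with 8.87 to 9.29 in TN and 7.72 to 8.73 in TMem. Lef1 read 10.91, 11.31 and 11.25 in TN and 10.33, 10.50 and 10.72 in TMem, a difference of -0.64 (SE 0.09). Bach2 went the other way, at 8.39, 8.87 and 8.82 in TN and 9.05, 9.08 and 9.41 in TMem (0.49, SE 0.12, adjusted p = 0.00147). Foxo1 (-0.16), Foxp1 (0.23) and Satb1 (-0.03) had overlapping groups. Each SE rests on the spread of all 10 groups, while the SD of Klf2 in TMem 0 h was 0.45. Over 15 alternative settings the limma adjusted p reached 0.00121 for Klf2, 0.0298 for Id3 and 0.0162 for Lef1, all still called. The summed linear level of 4 mast cell and basophil markers was 188 to 235 in TN and 579 to 1411 in TMem. That of 6 CD8+ T cell genes was 25417 to 30195 in TN and 19594 to 22352 in TMem. The part of either sum in these differences was not tested. Without TN replicate 1 and TMem replicate 3 the differences became -1.70 for Klf2, -0.98 for Id3 and -0.87 for Lef1. Foxo1 then passed the test at -0.54, while Bach2 no longer did at 0.22 (adjusted p = 0.142), nor in a fit of just these 2 groups (adjusted p = 0.0684), Foxp1 turned to -0.19 (adjusted p = 0.180) and Satb1 was at -0.06. At 0 h the name naive factor thus held by level for Klf2, Id3 and Lef1, and Bach2 was not higher in naive cells in either version.

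**Figure D2:**
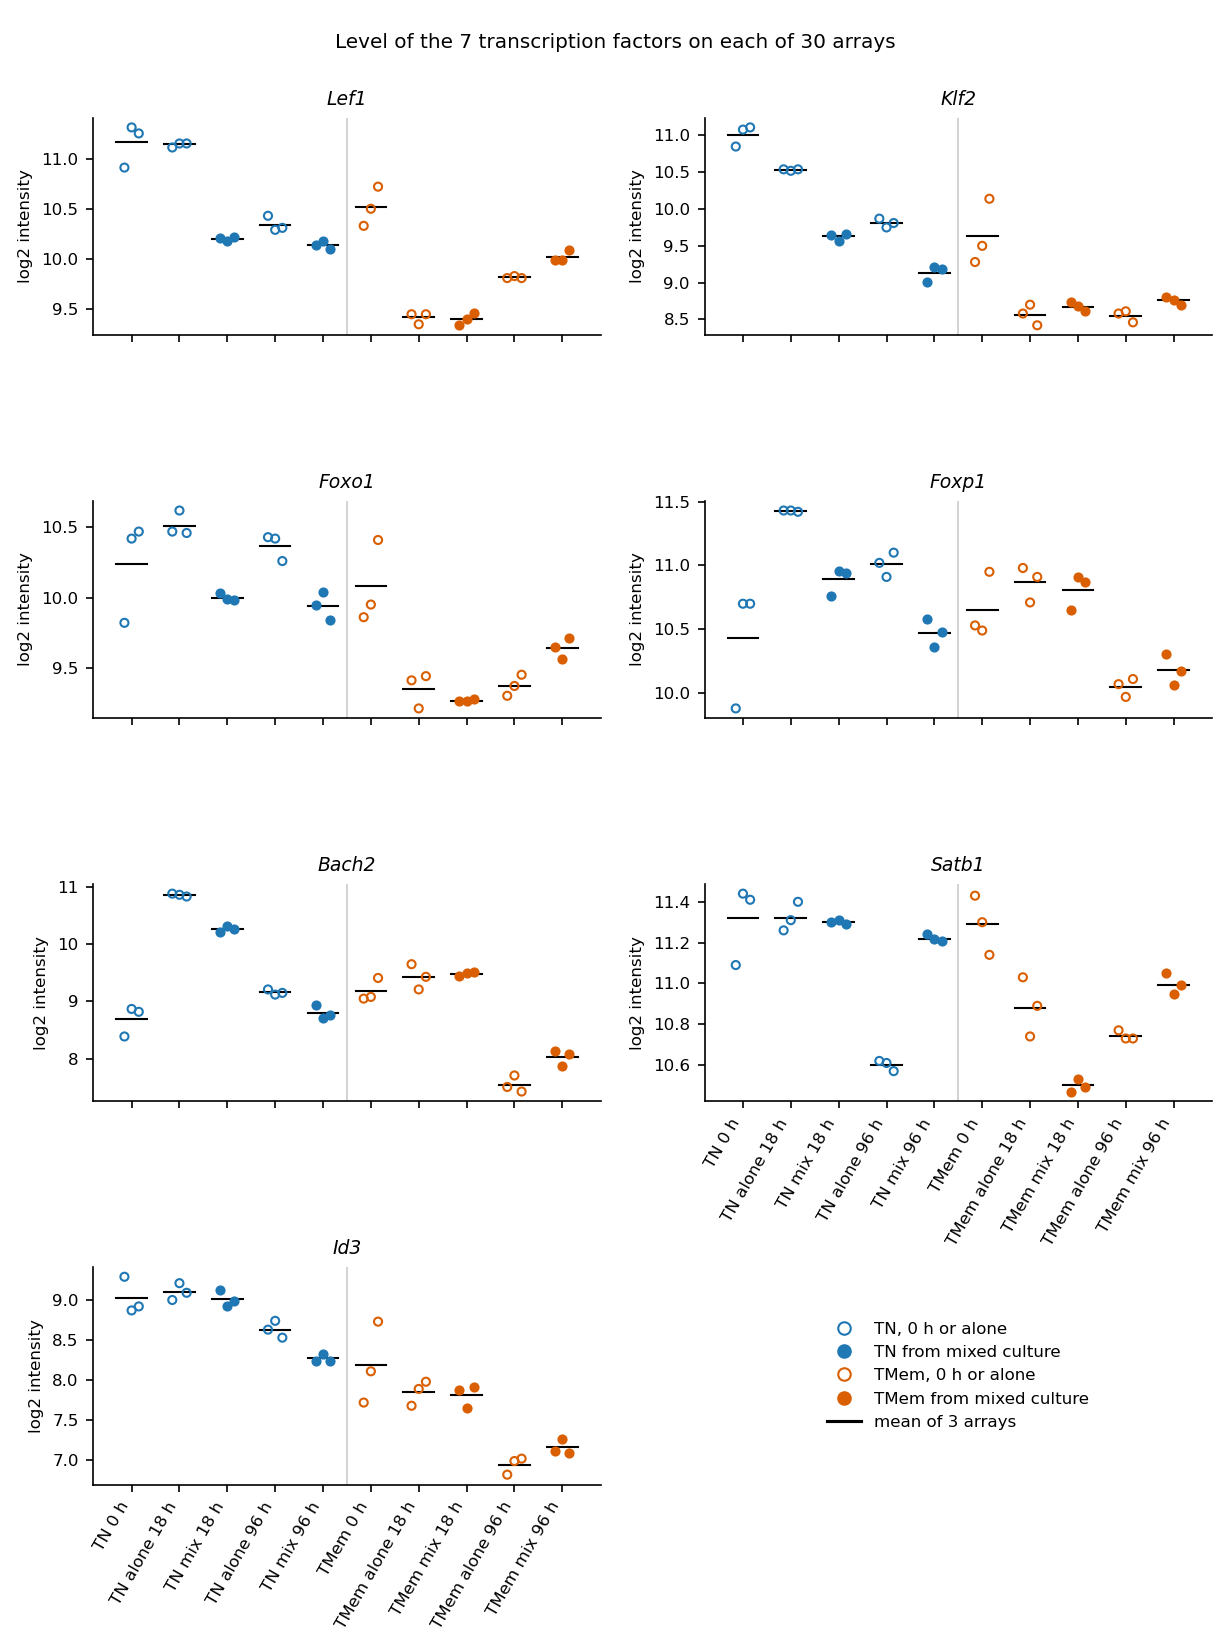
Log2 intensity of each of the 7 factors on each of the 30 arrays, by group; circles are arrays and lines are means of 3. Klf2 falls from 11.01 in TN 0 h to 8.55 in TMem alone 96 h, Bach2 peaks at 10.86 in TN alone 18 h, and Satb1 in TN at 96 h is at 10.60 alone and at 11.22 mixed.

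Naive cells stimulated alone for 18 h kept most of these transcripts or raised them. Bach2 and Foxp1 rose, Klf2 fell, and the other 4 did not pass the test, with 33.8% of all genes called. Bach2 went from 8.39, 8.87 and 8.82 to 10.88, 10.86 and 10.83, a rise of 2.16 (SE 0.12, 4.48-fold, adjusted p = 2.45e-14). Foxp1 went from 9.88, 10.70 and 10.70 to 11.43, 11.43 and 11.42, a rise of 1.00 (SE 0.15, adjusted p = 3.58e-06). All 18 h arrays of both genes lay above all 0 h arrays, and the low Foxp1 value at 0 h was that of replicate 1. Klf2 fell by 0.48 (adjusted p = 0.00366), its 18 h arrays lying between 10.52 and 10.54. Lef1 at 11.11 to 11.15, Satb1 at 11.26 to 11.40 and Id3 (mean 9.10) lay inside their 0 h ranges, and Foxo1 differed by 0.28 (adjusted p = 0.108). With both outlying 0 h arrays left out, the rises were 2.01 for Bach2 and 0.73 for Foxp1, the fall of Klf2 was -0.56, and the same 3 of 7 were called. The Y-linked transcripts differed between these groups too. The summed linear level of 7 B cell markers went from 1052 to 1219 down to 563 to 609. Without the outlying arrays 1 of these 7 was called lower and 0 higher. The sum for 6 CD8+ T cell genes went from 25417 to 30195 down to 21942 to 22509. Without the outlying arrays 4 of these 6 were called lower and 1 higher. The part of these shifts in the result was not tested.

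By 96 h the naive cells cultured alone had lower Lef1, Klf2 and Satb1 than at 0 h, and 6 of 7 factors were called against a background of 36.4%. Lef1 fell by 0.81 (SE 0.09, adjusted p = 2.03e-08) to 10.43, 10.29 and 10.31. Klf2 fell by 1.20 (SE 0.13, adjusted p = 1.00e-08) to 9.87, 9.75 and 9.81. Satb1 fell by 0.72 (SE 0.09) to 10.62, 10.61 and 10.57, and Id3 fell by 0.40 (adjusted p = 0.0431). Foxp1 (0.58) and Bach2 (0.47) remained above 0 h, and Foxo1 differed by 0.13 (adjusted p = 0.489). Without both outlying arrays 5 of 7 were called, at -0.94 for Lef1, -1.29 for Klf2 and -0.83 for Satb1. Foxp1 (adjusted p = 0.0133) and Bach2 (adjusted p = 0.0174) were then at 0.31 each, Id3 missed the test at -0.27 (adjusted p = 0.0688), and Foxo1 changed sign to -0.08. With just TN 0 h and TN alone 96 h in the fit, Foxp1 was not called (adjusted p = 0.0729). Markers of other cells rose in the same comparison, from 520 to 659 up to 1005 to 1030 in summed linear level for 9 myeloid markers (2 of 9 called higher), from 188 to 235 up to 562 to 708 for 4 of mast cells and basophils (2 of 4), and from 567 to 647 up to 999 to 1028 for 5 of CD4 and regulatory T cells (2 of 5). Their part in the result was not tested. From 18 h to 96 h in TN cultured alone 6 of 7 fell, with 24.4% of genes called, and Foxo1 did not pass (-0.14). Bach2 gave the widest of these falls (-1.70, SE 0.12), followed by Lef1 (-0.79), Satb1 and Klf2 (both -0.72), Id3 (-0.47) and Foxp1 (-0.42, adjusted p = 0.0401). The calls of Foxp1 and Id3 in that step were lost when single replicates were left out, up to adjusted p = 0.140 and 0.104. Eif2s3y was at 8.14 in TN alone at 18 h and at 4.17 at 96 h, Kdm5d at 7.61 and 5.39, and Uty at 6.88 and 4.36. The part of this difference in the step from 18 h to 96 h was not tested.

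In memory cells stimulated alone, at 18 h Lef1, Klf2, Foxo1 and Satb1 fell, none rose, and 3 did not pass the test, with 35.3% of all genes called. Lef1 went from 10.33, 10.50 and 10.72 to 9.45, 9.35 and 9.45, a fall of 1.10 (SE 0.09, 2.15-fold, adjusted p = 7.61e-11). Klf2 fell by 1.08 (SE 0.13), to 8.58, 8.70 and 8.42. Foxo1 fell by 0.72 (SE 0.13), from 9.86 to 10.41 down to 9.21 to 9.44. Satb1 fell by 0.40 (SE 0.09). Each of these 4 genes had every 18 h array below every 0 h array, and 43.5% of all genes had groups that did not overlap here. Without the outlying arrays the falls were -1.00 for Lef1, -0.83 for Klf2, -0.56 for Foxo1 and -0.48 for Satb1. Bach2 differed by 0.25 (adjusted p = 0.0976) and Foxp1 by 0.21 (adjusted p = 0.293), and both were called higher without the outlying 0 h arrays, at 0.37 and 0.36. Id3 differed by -0.34 (adjusted p = 0.0867), and by -0.07 without the outlying arrays. When TMem 0 h replicate 1 was left out instead, Id3 was called lower (adjusted p = 0.00187). The mast cell and basophil markers went from 579 to 1411 down to 163 to 177, with 3 of 4 called lower, and their part was not tested.

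At 96 h all 7 factors were below their 0 h level in memory cells cultured alone, against 24.5% of all genes called, and all 7 calls remained without the outlying arrays. Bach2 fell furthest, from 9.05, 9.08 and 9.41 to 7.51, 7.71 and 7.43, by 1.63 (SE 0.12, 3.09-fold, adjusted p = 2.68e-11). Id3 fell by 1.24 (SE 0.15), to 6.82, 6.99 and 7.02. Klf2 fell by 1.09, Lef1 and Foxo1 fell by 0.70 each, Foxp1 fell by 0.61 and Satb1 fell by 0.55. Without the outlying arrays these values were -1.51 for Bach2, -0.97 for Id3, -0.84 for Klf2, -0.60 for Lef1, -0.54 for Foxo1, -0.46 for Foxp1 and -0.62 for Satb1. Myeloid markers summed to 535 to 659 at 0 h and 1011 to 1134 at 96 h (1 of 9 called higher), those of mast cells and basophils to 579 to 1411 and 246 to 267 (3 of 4 lower), and their part was not tested. From 18 h to 96 h, with 24.4% of genes called, Bach2 (-1.88), Id3 (-0.90) and Foxp1 (-0.82) fell while Lef1 rose by 0.40 (SE 0.09, adjusted p = 0.00111), from 9.35 to 9.45 up to 9.81 to 9.83. Klf2 (-0.02) and Foxo1 (0.02) differed between these times by less than their SE of 0.13.

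The change from 0 h differed between the 2 cell kinds, by a test of the difference of their changes. At 18 h the change was lower in TMem than in TN for 6 of 7 factors, with 28.9% of all genes called in that test. For Bach2 the difference of changes was -1.91 (SE 0.17, adjusted p = 1.01e-09), for Lef1 -1.08 (SE 0.13) and for Foxo1 -1.00 (SE 0.18). Foxp1 (-0.79), Klf2 (-0.59) and Satb1 (-0.41) were also called, and Id3 was not (-0.41, adjusted p = 0.172). Y-linked transcripts in TN were higher alone at 18 h than at 0 h, while all TMem arrays were high in Eif2s3y. The summed linear level of 7 B cell markers fell in TN from 1052 to 1219 down to 563 to 609. In TMem it fell from 771 to 875 down to 507 to 592. The part of these shifts in the 18 h differences was not tested. At 96 h 4 of 7 were called, against 29.7%, all lower in TMem, namely Bach2 (-2.09), Foxp1 (-1.19), Id3 (-0.85) and Foxo1 (-0.84). Lef1 and Klf2 differed by 0.11 each at 96 h. Without the outlying 0 h arrays the differences at 18 h were -1.64 for Bach2, -0.85 for Lef1, -0.62 for Foxo1, -0.37 for Satb1 and -0.37 for Foxp1 (adjusted p = 0.0446), and Klf2 was no longer called (-0.26, adjusted p = 0.107). The call of Klf2 at 18 h was also lost with array weights, with arrays centred on the median and with just the groups compared. The call of Satb1 at 18 h was lost with arrays centred on the median and with just the groups compared (adjusted p up to 0.106). Without the outlying 0 h arrays the differences at 96 h were -1.83 for Bach2, -0.77 for Foxp1, -0.71 for Id3 and -0.46 for Foxo1, and Lef1 and Klf2 were then called higher in TMem, at 0.34 and 0.44.

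At 18 h, 5 of the 7 factors were lower in TN from mixed culture than in TN cultured alone. Of all genes, 14.4% were called in this comparison. Lef1 went from 11.11, 11.15 and 11.15 alone to 10.21, 10.18 and 10.22 mixed, a fall of 0.93 (SE 0.09, 1.91-fold, adjusted p = 2.84e-08). Klf2 went from 10.54, 10.52 and 10.54 to 9.65, 9.57 and 9.66, a fall of 0.90 (SE 0.13, 1.87-fold, adjusted p = 1.08e-05). The SD among replicates of both genes was at most 0.05, so the shift was many times their spread. Bach2 fell by 0.59 (SE 0.12), from 10.88, 10.86 and 10.83 to 10.21, 10.31 and 10.27. Foxp1 fell by 0.54 (SE 0.15, adjusted p = 0.0135), from 11.43, 11.43 and 11.42 to 10.76, 10.96 and 10.94, a call that was lost with arrays centred on the median and without TN mix 18 h replicate 1 (adjusted p up to 0.0671). Foxo1 fell by 0.51 (SE 0.13, adjusted p = 0.00666), from 10.47, 10.62 and 10.46 to 10.03, 9.99 and 9.98. Satb1 (-0.02) and Id3 (-0.09) had overlapping groups. Eif2s3y was at 8.14 in TN alone, 8.36 in TN mixed and 9.26 in TMem mixed at this time. Kdm5d and Uty were lower in mixed than in lone TN (7.49 against 7.61, and 6.72 against 6.88). By mean, all 7 factors in TN mixed lay between TN alone and TMem mixed. On the linear scale Foxp1 lay 89.4% of the way, Lef1 68.0%, Klf2 64.3%, Bach2 54.8%, Foxo1 51.4%, Id3 9.7% and Satb1 3.0%. The part of TMem RNA in the 18 h differences between mixed and lone TN was not tested.

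At 96 h Klf2, Foxo1 and Foxp1 were lower and Satb1 was higher in mixed than in lone TN. Thus 4 of 7 factors were called against a background of 10.6%. Klf2 went from 9.87, 9.75 and 9.81 to 9.01, 9.21 and 9.18, a fall of 0.68 (SE 0.13, 1.60-fold, adjusted p = 4.95e-04). Foxp1 fell by 0.54 (SE 0.15, adjusted p = 0.0167), from 10.91 to 11.10 down to 10.36 to 10.58. Foxo1 fell by 0.43 (SE 0.13, adjusted p = 0.0315), from 10.26 to 10.43 down to 9.84 to 10.04. Satb1 rose by 0.63 (SE 0.09, 1.54-fold, adjusted p = 7.88e-06), from 10.62, 10.61 and 10.57 to 11.24, 11.22 and 11.21, close to the 11.09 to 11.44 of unstimulated TN. Lef1 (-0.21, adjusted p = 0.169), Bach2 (-0.35, adjusted p = 0.0523) and Id3 (-0.36, adjusted p = 0.153) did not pass. For all 7 factors the 2 groups did not overlap, as for 27.8% of all genes. The number called was 2 without TN alone 96 h replicate 1, which loses Foxo1 and Foxp1, and 7 when the 0 h arrays were left out or arrays were weighted. Over all left-out replicates the adjusted p reached 0.124 for Foxo1 and 0.0813 for Foxp1.

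**Figure D3:**
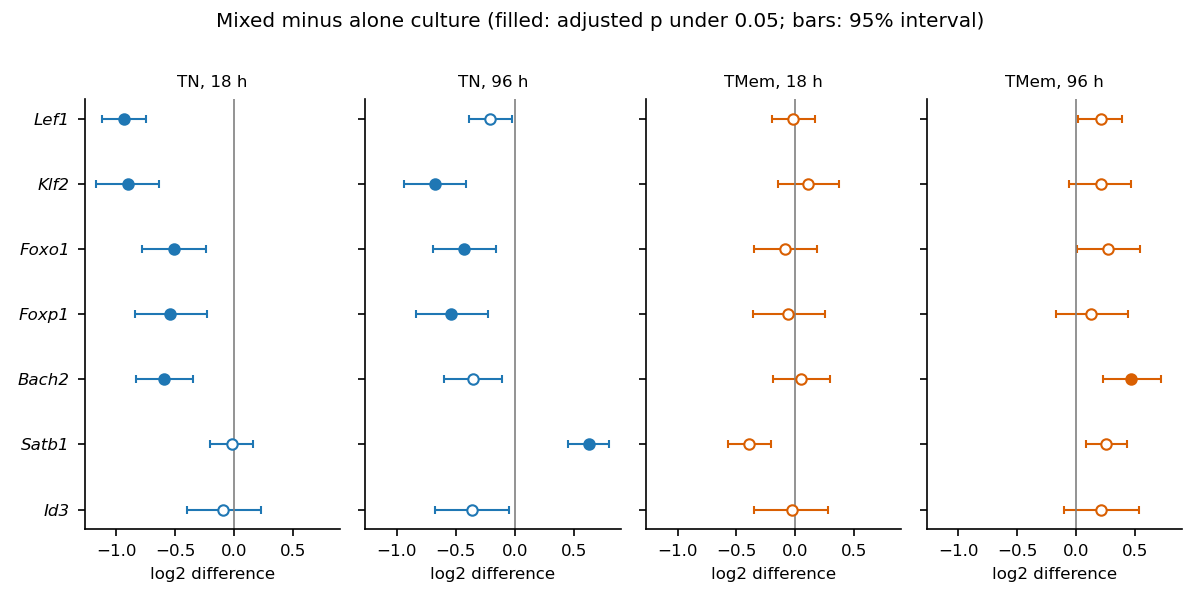
Difference in log2 intensity, mixed minus alone, for each factor in TN and TMem at 18 h and 96 h; points are differences of means of 3 arrays, bars their 95% intervals, filled points adjusted p below 0.05. In TN at 18 h 5 of 7 are filled and all of these are negative; in TMem only Bach2 at 96 h (0.47) is filled.

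Transcripts of other cell kinds and of the Y chromosome differed between the same groups at 96 h. Lyz2, of myeloid cells, was 8.26 in TN alone and 5.47 in TN mixed, Cpa3, of mast cells, 8.58 and 6.85, and Foxp3, of regulatory T cells, 8.79 and 7.30. The summed linear level of 9 myeloid markers ranged from 1005 to 1030 alone and from 521 to 610 mixed. That of 4 mast cell and basophil markers ranged from 562 to 708 and from 213 to 314, that of 5 CD4 and regulatory markers from 999 to 1028 and from 514 to 613, that of 7 B cell markers from 1091 to 1184 and from 819 to 889, and that of 5 NK cell markers from 179 to 183 and from 133 to 144. The sums rest on few genes, since 2 of 9 myeloid markers were called lower (median -0.10), 3 of 4 of mast cells and basophils (-0.88), 2 of 5 CD4 and regulatory ones (0.01), 1 of 7 of B cells (0.06) and 1 of 5 of NK cells (-0.21), and none was called higher. Of these 30 markers, 11 in TN alone and 14 in TN mixed had a mean below the lower quartile of all genes. The summed level of 6 CD8+ T cell genes was 22263 to 22547 alone and 22371 to 23135 mixed, with 2 of 6 called higher and none lower. Eif2s3y in TN mixed lay 31.3% of the way from TN alone to TMem mixed on the linear scale, Uty 31.9% and Kdm5d 34.7%. On that scale Klf2 lay 72.5% of the way, Foxp1 71.2%, Lef1 66.6%, Foxo1 64.6%, Bach2 40.1% and Id3 34.6%. Satb1 lay outside the interval, at 11.22 in TN mixed against 10.60 in TN alone and 10.99 in TMem mixed. The part of these differences in the member results was not tested.

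The mixing effect in naive cells changed with time for 2 of 7 factors, with 12.4% of all genes called in this test of 96 h against 18 h. Lef1 moved by 0.73 (SE 0.13, adjusted p = 2.11e-04), from -0.93 at 18 h to -0.21 at 96 h. Satb1 moved by 0.65 (SE 0.12, adjusted p = 5.12e-04), from -0.02 at 18 h to 0.63 at 96 h. The other 5 changed by between -0.28 and 0.24 and were not called. Eif2s3y was at 8.14 in lone and 8.36 in mixed TN at 18 h, but at 4.17 and 7.64 at 96 h. The lone and mixed groups thus differed more in this Y-linked transcript at 96 h than at 18 h. Its part in the change of the mixing effect was not tested. Naive cells in mixed culture went from 18 h to 96 h with a fall of Bach2 by 1.46 (SE 0.12), of Id3 by 0.74, of Klf2 by 0.50 and of Foxp1 by 0.42 (adjusted p = 0.0281, up to 0.0950 with single replicates left out), 4 of 7 called against 37.1% of all genes. Lef1 (10.20 and 10.14), Foxo1 (9.98 to 10.03 and 9.84 to 10.04) and Satb1 (11.30 and 11.22) gave no call between these times.

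Memory cells showed little of this. At 18 h none of the 7 factors was called between mixed and lone culture by limma, 1 of 7 had an unadjusted p below 0.05, and 0.0301% of all genes were called. Satb1 alone had groups that did not overlap (12.1% of all genes), at 11.03, 10.74 and 10.89 alone and 10.47, 10.53 and 10.49 mixed, a difference of -0.39 (95% interval -0.57 to -0.21, unadjusted p = 1.18e-04, adjusted p = 0.181). It was called when the 0 h arrays were left out (adjusted p = 0.00639) and with array weights. The other 6 differed by between -0.09 and 0.11. At 96 h all 7 differences were above 0, from 0.13 for Foxp1 to 0.47 for Bach2, with 1 of 7 called against 1.12%. Bach2 went from 7.51, 7.71 and 7.43 alone to 8.13, 7.87 and 8.08 mixed (SE 0.12, 1.39-fold, adjusted p = 0.0404), and that call was lost in 7 alternative settings, among them the replicate block, with adjusted p up to 0.277. Lef1 (0.21), Klf2 (0.21), Foxo1 (0.27), Satb1 (0.25) and Id3 (0.21) had groups that did not overlap and adjusted p from 0.263 to 0.960. With Bach2 that makes 6 of 7 without overlap, against 21.5% of all genes. From 18 h to 96 h in mixed culture, Lef1 (0.62), Satb1 (0.50) and Foxo1 (0.38) rose and Bach2 (-1.46), Id3 (-0.66) and Foxp1 (-0.63) fell in memory cells, 6 of 7 called against 27.6% of all genes. The call of Foxo1 (adjusted p = 0.0266) was lost in 6 of 15 alternative settings (adjusted p up to 0.0945).

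The direct tests of the mixing effect in TN against that in TMem share no arrays between the cell kinds. Mixed TN and mixed TMem were however stimulated together before they were separated, so the 2 effects need not be independent. At 18 h 3 of 7 were called, against 5.17% of all genes, all lower in TN, namely Klf2 (-1.01, SE 0.18, adjusted p = 5.97e-04), Lef1 (-0.92, SE 0.13) and Bach2 (-0.64, SE 0.17, adjusted p = 0.0194). At 96 h 3 of 7 were called, against 3.54%, again lower in TN, namely Klf2 (-0.89, SE 0.18, adjusted p = 0.00322), Bach2 (-0.83, SE 0.17) and Foxo1 (-0.70, SE 0.18, adjusted p = 0.0268). Satb1 leaned the other way at both times (0.37, SE 0.12), with adjusted p of 0.0803 and 0.0996. Without the 0 h arrays 6 factors were called at 18 h and all 7 at 96 h. The call of Foxo1 at 96 h was lost in 7 of 21 settings, each leaving out 1 replicate (adjusted p up to 0.0780), and that of Bach2 at 18 h in 2, with arrays centred on the median and without TMem alone 18 h replicate 2 (up to 0.107).

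These tests also state how far the memory-to-naive gap differed between lone and mixed cultures. Alone at 18 h every factor was lower in TMem than in TN, 7 of 7 called in a comparison with 28.9% of genes called. Klf2 had the widest gap, -1.97 (SE 0.13, 3.91-fold), with 10.52 to 10.54 in TN and 8.42 to 8.70 in TMem. Lef1 followed at -1.72 (SE 0.09), Bach2 at -1.42, Id3 at -1.25, Foxo1 at -1.16, Foxp1 at -0.56 and Satb1 at -0.44. In mixed cultures at 18 h 6 of 7 were lower in TMem, against 20.4%, and the gap was -0.95 for Klf2, -0.80 for Lef1 and -0.78 for Bach2. Foxp1 had no gap past the test there (-0.08, adjusted p = 0.783), and Satb1 had one of -0.81. The summed linear level of 6 CD8+ T cell genes at 18 h was also lower in TMem. Alone it was 13436 to 14522 in TMem and 21942 to 22509 in TN. Mixed it was 14618 to 15625 in TMem and 18962 to 20149 in TN. Its part in these gaps was not tested.

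Alone at 96 h 6 of 7 were lower in TMem, against 22.2%, from -1.69 (SE 0.15) for Id3 and -1.61 (SE 0.12) for Bach2 to -0.53 (SE 0.09) for Lef1, and Satb1 was the exception (0.14, adjusted p = 0.284). In mixed cultures at 96 h 2 of 7 were called, against 10.6%. Id3 read 8.24, 8.33 and 8.24 in TN and 7.11, 7.27 and 7.09 in TMem (-1.11, SE 0.15, adjusted p = 6.15e-06). Bach2 read 8.94, 8.71 and 8.76 in TN and 8.13, 7.87 and 8.08 in TMem (-0.78, SE 0.12, adjusted p = 2.42e-05). The gaps of Klf2 (-0.37, adjusted p = 0.0622), Foxo1 (-0.30), Foxp1 (-0.29), Satb1 (-0.23) and Lef1 (-0.12) did not pass. None of the 7 had overlapping groups here, as for 27.6% of all genes, and 6 of 7 were called without the 0 h arrays. The summed linear level of 6 CD8+ T cell genes at 96 h was lower in TMem too. Alone it was 15732 to 16220 in TMem and 22263 to 22547 in TN. Mixed it was 17771 to 18487 in TMem and 22371 to 23135 in TN. Its part in the 96 h gaps was not tested.

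**Figure D4:**
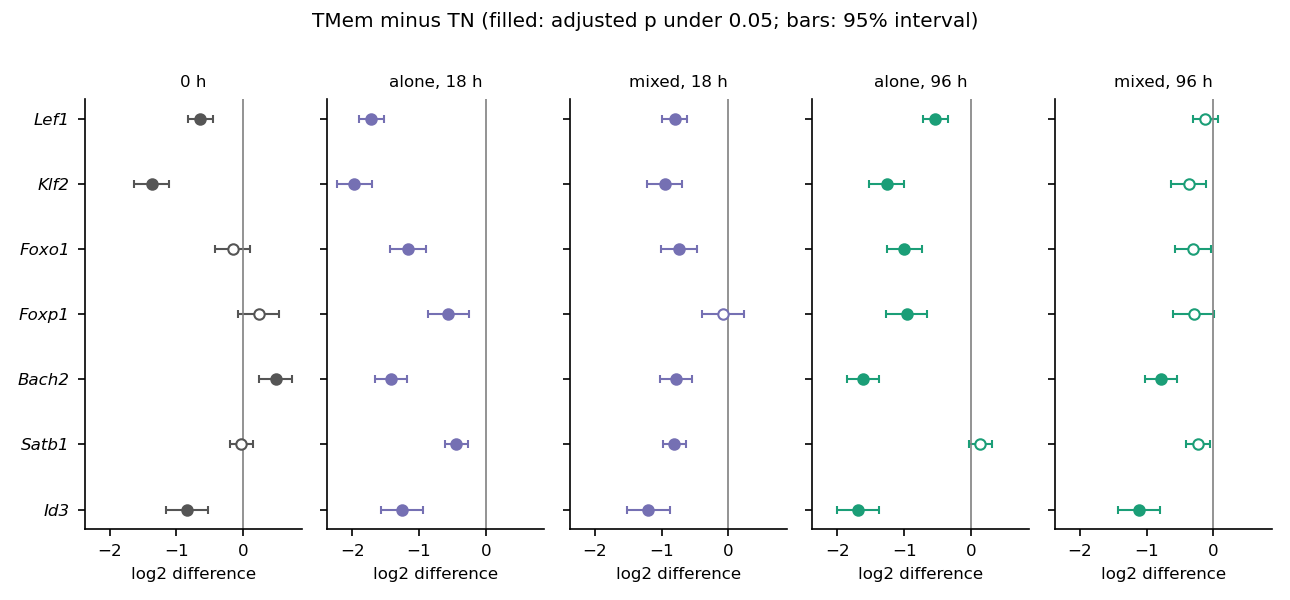
Difference in log2 intensity, TMem minus TN, for each factor at 0 h and in lone and mixed cultures at 18 h and 96 h; points are differences of means of 3 arrays, bars their 95% intervals, filled points adjusted p below 0.05. All 7 points are filled and below 0 alone at 18 h, and only Bach2 and Id3 are filled in mixed cultures at 96 h.

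Across all 10 groups the factors kept different orders. Klf2 was highest in TN 0 h (11.01), then TN alone 18 h (10.53), TN alone 96 h (9.81), TMem 0 h (9.64), TN mix 18 h (9.63) and TN mix 96 h (9.13), with the 4 stimulated TMem groups last at 8.55 to 8.76. Neighbours in the middle (TN alone 96 h, TMem 0 h and TN mix 18 h) overlapped. Among the 4 last groups each overlapped the next in order, but TMem mix 96 h lay above TMem alone 96 h without overlap. Lef1 was highest in TN 0 h (11.16) and TN alone 18 h (11.14), which overlapped, followed by TMem 0 h (10.52) with TN alone 96 h (10.34), TN mix 18 h (10.20) with TN mix 96 h (10.14), TMem mix 96 h (10.02) and TMem alone 96 h (9.82), and lowest in TMem alone 18 h (9.42) and TMem mix 18 h (9.40). Only the first and last pairs, TMem 0 h with TN alone 96 h, and TN mix 18 h with TN mix 96 h overlapped. Foxo1 had its 3 lone or unstimulated TN groups on top (10.51 alone at 18 h, 10.37 alone at 96 h and 10.24 at 0 h). The first of them lay above the second without overlap. Foxo1 was lowest in TMem alone 96 h (9.37), TMem alone 18 h (9.35) and TMem mix 18 h (9.26). Each of these overlapped the next, but TMem alone 96 h did not overlap TMem mix 18 h. Between the top and the lowest groups lay TMem 0 h (10.08), TN mix 18 h (9.98 to 10.03), TN mix 96 h (9.94) and TMem mix 96 h (9.64). Of these, TMem mix 96 h overlapped no neighbour.

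Bach2 instead put the 18 h groups first, with TN alone 18 h (10.86) and TN mix 18 h (10.27) above TMem mix 18 h (9.48) and TMem alone 18 h (9.43), then TMem 0 h (9.18), TN alone 96 h (9.16), TN mix 96 h (8.80) and TN 0 h (8.69), and last TMem mix 96 h (8.03) and TMem alone 96 h (7.55). Its group means spanned 3.30, more than 98.6% of all genes. Foxp1 ran from 11.43 in TN alone 18 h to 10.05 in TMem alone 96 h, and every neighbour below the first place overlapped the next. Id3 put all 5 TN groups (9.10 to 8.27) above all TMem groups by mean (8.19 to 6.94), although TMem 0 h overlapped TN mix 96 h and TN alone 96 h. Satb1 varied least, by 0.83, less than any other of the 7, and its lowest groups were TMem mix 18 h (10.50) and TN alone 96 h (10.60).

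Over the 10 group means Lef1, Klf2 and Foxo1 ran alike, with Pearson r of 0.94 for Lef1 and Klf2, 0.90 for Lef1 and Foxo1 and 0.88 for Klf2 and Foxo1. Foxp1 and Bach2 ran alike (0.94) and less like Lef1 (0.26 and 0.28), and Satb1 and Foxp1 had r of 0.10. These values describe 10 points that share cell kind and time, and carry no test. Among 4456 or 4457 genes whose group means span at least 1, Lef1 was most like Stk38 (0.991), Heca (0.985) and Fbxl12 (0.983), and Klf2 was most like Pced1b (0.995), H2-Ob (0.993) and Cyp2d22 (0.992). The nearest to Foxo1 were Itpr2 (0.977), Trim34a and Idnk (0.972 each). Bach2 and Foxp1 shared Igf1r, the receptor for insulin-like growth factor, as nearest gene (0.988 and 0.951) and Pip4p2 as most opposed (-0.988 and -0.955). Bach2 was next most like Sh2b3 (0.963) and Slamf1 (0.960), and Foxp1 was next most like Thada (0.940) and Bach2 itself (0.937). Id3 was most like the interferon-induced Ifit3 (0.982), Il6st (0.979) and Peli1 (0.975) and most unlike Hmox1 (-0.990), and Satb1 was most like Ifi208 (0.903), Irf7 (0.881) and Cd28 (0.825) and most unlike Slc7a11 (-0.835). Nudcd2 (-0.983) was the most opposed to Lef1, Nek4 (-0.981) to Klf2 and Pi4k2b (-0.945) to Foxo1.

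Genes known as targets of FOXO1 and KLF2 were measured for 17 of 18 listed. At 0 h 15 of 17 were lower in TMem and none higher, where 35.9% of all genes were called, with a median of -0.58 against 0.02 over all genes. Without both outlying arrays 14 of 17 were lower and none higher, with a median of -0.79. In TN at 18 h 15 of 17 were lower in mixed than in lone culture and none higher, where 14.4% of all genes were called. The median difference was -0.75 against -0.01 over all genes. Il7r, the interleukin-7 receptor of resting T cells, fell by 1.61 (SE 0.16, adjusted p = 4.19e-08), from 11.88, 11.96 and 12.00 to 10.39, 10.31 and 10.32. The interleukin-6 receptor Il6ra fell by 1.29 (SE 0.14), Pik3ip1, an inhibitor of PI3K, fell by 1.22 (SE 0.10), and Cd55, which protects cells from complement, fell by 1.22 (SE 0.16). The 2 that did not pass were Ccr7 (0.21, adjusted p = 0.294), which guides naive cells into lymph nodes, and Btg1 (-0.19, adjusted p = 0.181), a brake on proliferation.

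At 96 h the targets no longer ran together in mixed TN. Of the 17, 7 fell and 3 rose, where 10.6% of all genes were called, with a median of -0.04 against 0.05 over all genes. Il6ra (-1.21, SE 0.14), Il7r (-1.19, SE 0.16) and S1pr1 (-1.15, SE 0.08), the receptor for exit from lymph nodes, were lower in mixed culture, and Ccng2, a cyclin of resting cells, was higher (0.70, SE 0.10). Il7r in TN mixed (9.44) lay below both TN alone (10.62) and TMem mixed (10.77), and S1pr1 (7.87) below TN alone (9.03) and TMem mixed (8.10). In TMem at 18 h mixing moved none of the 17 past the limma test (median 0.03, 3 of 17 with an unadjusted p below 0.05, 0.0301% of all genes called), and at 96 h 5 rose and none fell, where 1.12% of all genes were called, with a median of 0.31 against -0.01, among them Pik3ip1 (0.61, SE 0.10) and S1pr1 (0.53, SE 0.08).

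**Figure D5:**
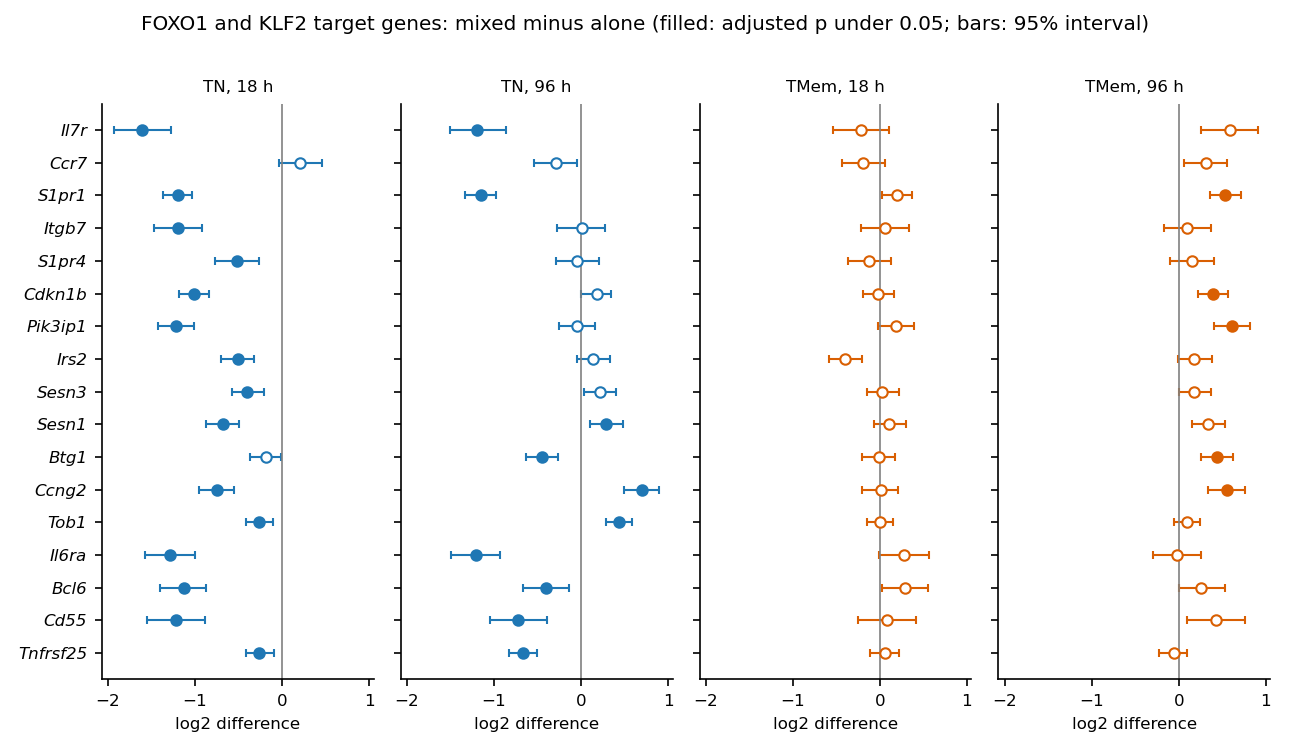
Difference in log2 intensity, mixed minus alone, for the 17 measured targets of FOXO1 and KLF2 in TN and TMem at 18 h and 96 h; points are differences of means of 3 arrays, bars their 95% intervals, filled points adjusted p below 0.05. In TN at 18 h 15 of 17 are filled and negative; in TMem at 96 h 5 are filled and all are positive.

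The relatives of the factors did not all go with them, and the counts in mixed TN stand beside 14.4% of all genes called at 18 h and 10.6% at 96 h. Of 11 other measured KLF genes, 4 were lower and 1 was higher in mixed than in lone TN at 18 h. Klf13 (-1.18, SE 0.10) and Klf3 (-1.07, SE 0.17) were lower beside Klf2 while Klf10 was higher (0.54, SE 0.11). At 96 h Klf3 was lower (-0.83) and Klf6 higher (0.60, SE 0.10), with 2 of 11 lower and 3 higher. Of 6 other FOXO and FOXP genes only Foxo3 fell at 18 h (-0.43, SE 0.07) and only Foxp3 at 96 h (-1.49, SE 0.22). Bach1, Nfe2l2 and the small MAF genes, the partners with which BACH proteins bind DNA, gave no limma call among 5 in mixed TN at 18 h, none with an unadjusted p below 0.05, and 1 at 96 h (Maff, 0.45). In TN alone at 18 h 4 of these 5 rose, as Bach2 did and where 33.8% of all genes were called (4 also without the outlying arrays), led by Mafk (0.93, SE 0.06) and Mafg (0.82, SE 0.08). Id2, the ID protein of effector cells, did not move with Id3. It was not called in mixed TN at 18 h, rose by 0.76 (SE 0.22, adjusted p = 0.0206) at 96 h, and was higher by 1.38 (SE 0.22) in TMem alone at 96 h than at 0 h (1.10 without the outlying arrays), where Id3 fell. Among 13 measured partners of LEF1, 6 fell and 1 rose in mixed TN at 18 h, with Bcl9l (-0.96, SE 0.08) and Bcl9 (-0.63, SE 0.14), cofactors of beta-catenin, in front, and at 96 h 1 fell and 2 rose. Of 10 measured kinases and phosphatases that act on FOXO1, 3 fell in mixed TN at 18 h, namely Pik3r1 (-0.63), Inpp5d (-0.60) and Pik3cd (-0.48), and none was called by limma at 96 h, where 2 had an unadjusted p below 0.05.

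Regulators outside these families gave a mixed picture, beside the same 14.4% and 10.6% of all genes called in mixed TN. Of 18 other genes tied to the naive or quiescent state, 11 fell and 3 rose in mixed TN at 18 h (median -0.38), with Txnip, an inhibitor of thioredoxin, lower by -1.00 (SE 0.10) and Myb, a factor of stem-like CD8+ cells, higher by 0.87 (SE 0.10). At 96 h 2 of the 18 fell and none rose. Of 17 effector regulators 4 rose and 2 fell in mixed TN at 18 h, led by Eomes (1.27, SE 0.09) and Bhlhe40 (1.05, SE 0.12). At 96 h 10 rose and 2 fell, with Bhlhe40 (0.90, SE 0.12) and Hif1a (0.81, SE 0.11) higher and Ikzf2 lower (-1.02, SE 0.13).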

How the data were processed

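RNA of 30 samples was amplified, biotin-labelled with GeneChip kits and measured on arrays, per the labels' protocols. The values are log2 intensities as deposited by the authors, made with RMA and Partek per the submitters' processing notes, which give no roles, versions or genome build. The 35556 rows were joined to the platform's gene table, in which 21789 rows had 1 symbol, 1621 several and 12146 none. For each gene the row with the highest mean was used, and array medians ran from 6.76 to 6.94. Group means were fitted with limma 3.58.1 (R 4.3.3) over all 30 arrays, with 20 residual degrees of freedom, and 17 comparisons and 5 differences of effects were tested 2-sided with Benjamini-Hochberg adjustment over 19938 genes. The code was tested on simulated data. Precision is limited by the 3 arrays per group. The p-values measure the spread among these samples. The members and lists were chosen with earlier results of these data known. Of 147 listed genes 141 were measured, and the rest are not analysed here.

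Genes outside the members were named by rule: the 3 most alike and the 1 most opposed to each member over group means among genes spanning at least 1 (leaving out predicted genes, small RNAs, receptor and immunoglobulin segments and olfactory receptors), relatives and partners of a member, and of each other list at most the 4 called genes of largest difference per comparison. Ccr7 and Btg1 and the marker, X- and Y-linked genes were named after their values were seen. Motifs were searched in RefSeq promoter windows. Same-numbered replicates deviated together (r above 0.1 for every pair) in 1 of 17 comparisons, so that the numbers were not taken as pairs. Alternatives were a replicate block, trend and robust fits, array weights, the compared groups alone, quantile normalization, median centring, a filter keeping genes whose mean exceeds the lower quartile in at least 1 group (16727 passed), the mean of a gene's rows and leaving out each replicate. Leaving out all 0 h arrays or 2 outlying ones was added after seeing the data.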

Additional observations from a re-analysis of the deposited data

Results flagged for a closer look

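Several effects differed between cell kinds or times by a limma test of the difference itself, with adjustment over all genes. The response to 18 h of stimulation was lower in TMem than in TN for Bach2 (-1.91, adjusted p = 1.01e-09), Lef1 (-1.08, 2.03e-07), Foxo1 (-1.00, 1.11e-04), Foxp1 (-0.79, 0.00500), Klf2 (-0.59, 0.0138) and Satb1 (-0.41, 0.0116). At 96 h it was lower in TMem for Bach2 (-2.09, 9.41e-11), Foxp1 (-1.19, 6.32e-05), Id3 (-0.85, 0.00332) and Foxo1 (-0.84, 7.25e-04). The effect of mixing at 18 h was lower in TN than in TMem for Klf2 (-1.01, 5.97e-04), Lef1 (-0.92, 2.46e-05) and Bach2 (-0.64, 0.0194). At 96 h it was lower in TN for Klf2 (-0.89, 0.00322), Bach2 (-0.83, 0.00259) and Foxo1 (-0.70, 0.0268). Within TN the effect of mixing was higher at 96 h than at 18 h for Lef1 (0.73, 2.11e-04) and Satb1 (0.65, 5.12e-04). Y-linked transcripts also differed between the TN groups in some of these tests, and their part was not tested. Among 21 alternative settings, the 18 h response call was lost in 4 for Klf2 and in 2 for Satb1. The call for the mixing effect was lost in 2 for Bach2 at 18 h and in 7 for Foxo1 at 96 h.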

How the results depend on the processing

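Of 93 called member results, 78 kept direction and call under every alternative. Of 2520 alternative values, 59 lost a call, 73 gained one, and 36 of uncalled differences near 0 took the other sign. Members called in TN mix minus alone at 96 h (4) numbered 7 with array weights, 7 without the 0 h arrays and 2 without TN alone 96 h replicate 1 (2 to 4 over left-out replicates). In TMem mix minus alone at 18 h (0) the number was 1 with array weights and 1 without the 0 h arrays. At 96 h (1) it was 0 with the replicate block, quantile normalization or median centring, 3 with array weights, 2 without the 0 h arrays and 0 to 1 over left-out replicates. The mixed-culture gap at 96 h (2) had 5 with array weights, 4 with quantile normalization and 6 without the 0 h arrays. The difference of mixing effects (3 at both times) had 6 at 18 h and 7 at 96 h when arrays were weighted, when the fit held just the groups of that test, or without the 0 h arrays, and fell to 2 with median centring at 18 h and to 2 without any of 7 single replicates at 96 h. Over the same settings, genes called among all numbered 4091 to 8785 at 0 h (7151), 1897 to 4853 (2881) and 1516 to 6343 (2117) for mixing in TN at 18 h and 96 h, 1 to 100 (6) and 105 to 906 (223) for mixing in TMem, 1523 to 4909 (2117) for the mixed gap at 96 h, 734 to 2941 (1031) and 531 to 3202 (705) for the difference of mixing effects, and 1851 to 5147 (2475) for its change in TN. Other comparisons where a setting gave a count over 1.5 times away from the one in brackets were TMem alone from 18 h to 96 h, 4083 to 7546 (4868), the lone gap at 96 h, 3618 to 8205 (4420), and the mixed gap at 18 h, 3172 to 6107 (4070). Replicate numbers met the limit for pairing only in TN mix minus alone at 96 h, where the replicate block also gave 4 calls. Over all comparisons the block changed only 1 call of a member, that of Bach2 in TMem mix minus alone at 96 h, which was lost.

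Signs turned as follows. With array weights TMem minus TN at 0 h was -0.11 for Foxp1, and TN alone minus 0 h was -0.10 for Satb1 at 18 h and -0.12 for Foxo1 at 96 h. With both outlying 0 h arrays left out these were -0.19, -0.11 and -0.08. Quantile normalization gave 0.01 for Satb1 at 0 h, 0.01 for Lef1 in TN at 18 h, and -0.03 for Lef1 and -0.04 for Klf2 in the difference of responses at 96 h. Median centring gave -0.07 for Foxo1 from 18 h to 96 h in TMem alone, 0.05 for Satb1 in mixed TN at 18 h, 0.05 for Id3 in the difference of mixing effects at 18 h and -0.05 for Foxo1 in the change of the mixing effect in TN. Over fits that each left out 1 replicate, TMem minus TN at 0 h ran from -0.04 to 0.37 for Foxp1 and from -0.14 to 0.05 for Satb1. In TN alone at 18 h minus 0 h it ran from -0.15 to 0.06 for Lef1, -0.11 to 0.07 for Satb1 and -0.01 to 0.20 for Id3, and at 96 h from -0.08 to 0.25 for Foxo1. In TMem alone from 18 h to 96 h it ran from -0.09 to 0.05 for Klf2 and -0.05 to 0.06 for Foxo1. Mixing at 18 h gave -0.05 to 0.02 for Satb1 in TN, and in TMem -0.05 to 0.01 for Lef1, -0.13 to 0.03 for Foxp1, -0.06 to 0.16 for Bach2 and -0.12 to 0.05 for Id3. The difference of responses at 96 h was -0.07 to 0.36 for Klf2, and that of mixing effects at 18 h -0.13 to 0.03 for Id3. The cause was not tested. Array number and the wide 0 h groups limit precision.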
